A study of Homo sapiens with 8 samples.

Results

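Actin filament capping proteins were followed in ribosome profiling libraries of 293T cells. The list named 9 genes: the CapZ subunits CAPZA1, CAPZA2 and CAPZB, the gelsolin relative CAPG, the tropomodulins TMOD1, TMOD2 and TMOD3, and the twinfilins TWF1 and TWF2. A member was found by its gene symbol, and 8 of the 9 had a row among the 17179 gene symbols of the files. TWF1 was not analysed here. The list was chosen because CAPZA1 was lower and TMOD1 higher in cells with the hairpin shNBD1 than in their control, so the values of that comparison are given below as a description, with no test. All 8 members passed the filter on low counts.

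An actin filament has a fast-growing barbed end and a slow-growing pointed end. CapZ, a heterodimer of an alpha and a beta subunit, binds the barbed end and stops subunits from joining or leaving, while tropomodulins bind the pointed end together with tropomyosin. Cells hold alternative alpha subunits encoded by CAPZA1 and CAPZA2, and CapZ also caps the short actin-related filament of dynactin and takes part in the WASH complex on endosomes. Twinfilins bind actin monomers and barbed ends, and CAPG caps barbed ends without severing filaments.

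Ribosome profiling counts the mRNA fragments that ribosomes shield from nuclease, here in lysates with cycloheximide, so a gene's value reports footprints on its message and not mRNA level alone. 293T is a human embryonic kidney line with the SV40 large T antigen. The 8 libraries formed 4 groups of 2: cells with the control for shRNA, cells with the non-cleaving shRNA shNBD1, cells with the negative control for inhibitors, and cells with miRNA inhibitors. The labels give no dose, time or inhibitor sequence. They do not tie replicates to separate cultures, so p-values and errors cover the spread of these libraries only, and it may be technical. Library totals ran from 11218980 to 19854218 counts, and replicates of all groups differed by more than counting noise (chi-square over its degrees of freedom of 1.42 in the shRNA control, up to 21.1 with the inhibitors).

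Levels below are CPM, counts scaled to a common library size with the TMM method. An NBD1 reporter had a row in every library and averaged 9105 ± 33.2 CPM (SD, n = 2) under the control hairpin, against 7136 ± 137 CPM (SD, n = 2) under shNBD1. Among markers of 293T cells, VIM lay at 3063 CPM or above in all libraries, while NEFM was at 0.92 to 1.66 CPM. With shNBD1 5 of 6 tested markers of 293T cells rose and none fell (adjusted p under 0.05, edgeR), beside 9.18% and 9.15% of all genes. VIM made up most of the summed level of the list, at 3541 to 3588 CPM under the control hairpin, against 5900 to 6172 CPM under shNBD1. The sum was 5418 to 5452 CPM under the control hairpin, against 8517 to 8846 CPM under shNBD1. The part of that shift in the values below was not tested. Of 10 markers of other cell types, PTPRC, ALB and HBB, which define leukocytes, hepatocytes and red cells, were each at 0.31 CPM or below. Others of the list were expressed: the epithelial marker EPCAM ranged from 85.1 to 140.2 CPM, the collagen gene COL1A1 from 24.2 to 61.0 CPM, and the macrophage marker CD68 from 10.6 to 38.5 CPM. Summed over the 10, the level was 235 to 239.6 CPM for the control hairpin, 246 CPM in both shNBD1 libraries, 148 to 190.0 CPM for the inhibitor control and 194 to 234 CPM for the inhibitors.

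CAPZA1 encodes an alpha subunit of CapZ and lies on chromosome 1 from 112619832 to 112671616 (GRCh38.p14). Its footprints stood at 125.8 and 124.7 CPM under the control hairpin, against 54.0 and 52.9 CPM under shNBD1. Both shNBD1 libraries were the lowest of all 8, and the SD within each of these groups was 0.73 CPM. The log2 fold change was -1.23 ± 0.07 (SE), a level 2.34-fold lower, and it was the 141st lowest of 13306 genes. In the other arm CAPZA1 was at 156.0 and 150.8 CPM in the inhibitor control and at 172.7 and 161.0 CPM with the inhibitors.

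CAPZA2, the alternative alpha subunit on chromosome 7 (116862587 to 116922049), was at 53.5 and 54.8 CPM under the control hairpin, against 49.1 and 50.3 CPM under shNBD1. These libraries did not overlap, but the log2 fold change was only -0.12 ± 0.08. CAPZB, the beta subunit on chromosome 1 (19338775 to 19485539), was at 183.7 and 176.4 CPM under the control hairpin, against 185.4 and 174.7 CPM under shNBD1. Its groups overlapped fully, with a log2 fold change of 0.00 ± 0.07. Within CapZ, the difference with shNBD1 thus lay in the counts of CAPZA1, with its partner subunit at its control level. CAPZA1 and CAPZA2 are close paralogs, and the treatment of reads that match both is not given in the sources used here, so a part of their counts could be shared.

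The ratio of CAPZA1 to CAPZB counts puts this in each library free of library size. It was 0.685 and 0.707 under the control hairpin, against 0.291 and 0.303 under shNBD1. The inhibitor control libraries had 0.796 and 0.766, and the inhibitor libraries 0.858 and 0.816. The ratio of CAPZA2 to CAPZB stayed between 0.265 and 0.313 in all 8 libraries, where the shNBD1 libraries lay below both control groups and overlapped with the inhibitor libraries. For both alpha subunits together the ratio to CAPZB was 0.997 ± 0.03 under the control hairpin, against 0.573 ± 0.025 under shNBD1 (SD, n = 2), which is 0.575 of the control value. CAPZA1 made up 69.8 ± 0.50% of the alpha counts under the control hairpin, against 51.8 ± 0.77% under shNBD1 (SD, n = 2). Since counts grow with the length of a message, these ratios are compared between groups only and do not give the stoichiometry of the subunits.

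**Figure D1:**
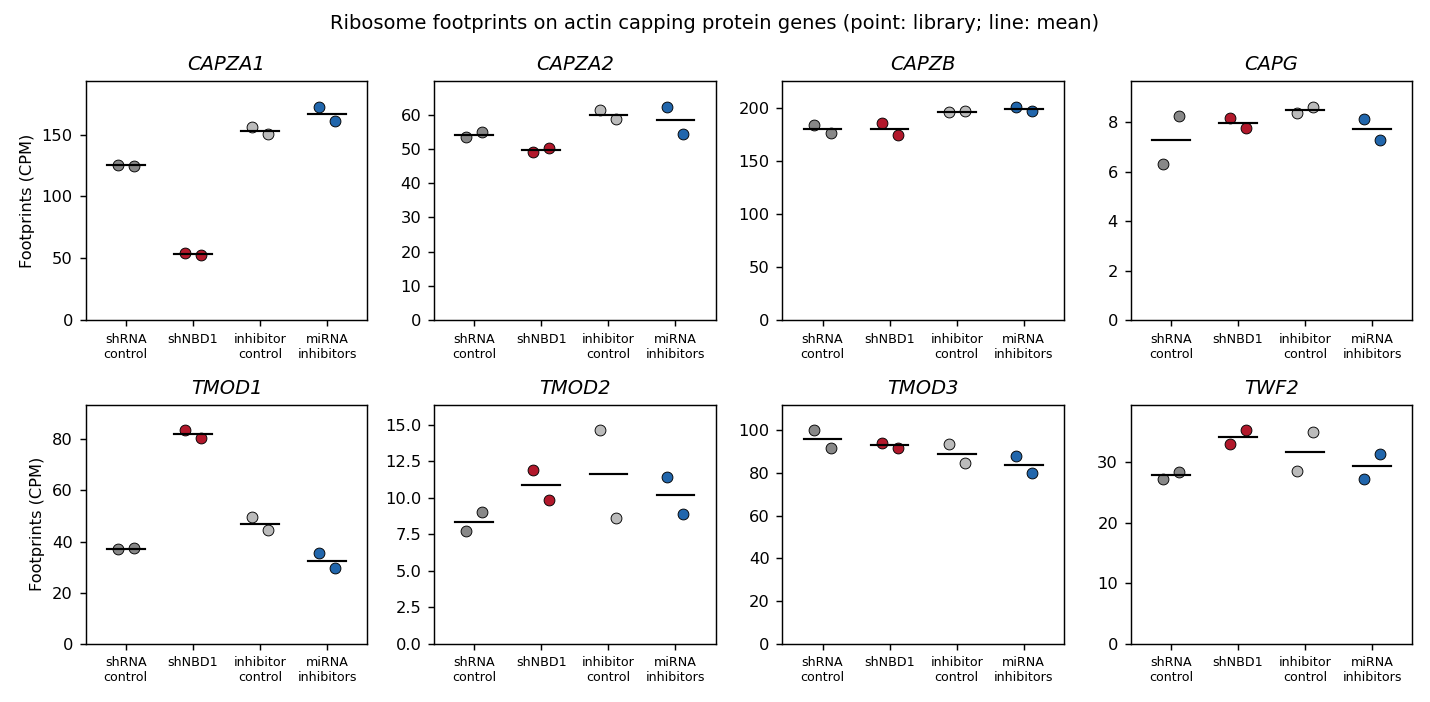
Ribosome footprints on the 8 measured capping protein genes in CPM, with a point for each library and a line for the mean of each group (n = 2), on axes that start at 0. CAPZA1 was lowest in both shNBD1 libraries and TMOD1 was highest in them, while CAPZB and TMOD3 kept a narrow range over all groups.

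TMOD1 encodes a tropomodulin first known from red cells and muscle, and lies on chromosome 9 from 97501180 to 97601743. Its footprints stood at 37.1 and 37.4 CPM under the control hairpin, against 83.6 and 80.4 CPM under shNBD1. Both shNBD1 libraries were the highest of all 8. The log2 fold change was 1.14 ± 0.10, a level 2.20-fold higher, and it was the 242nd highest of 13306 genes. The inhibitor control libraries had 49.7 and 44.5 CPM of TMOD1, the inhibitor libraries 35.6 and 29.6 CPM.

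The other tropomodulins are neighbours on chromosome 15. TMOD3, the widely expressed form (51829653 to 51915725), was at 99.9 and 91.5 CPM under the control hairpin, against 94.1 and 91.6 CPM under shNBD1, with a log2 fold change of -0.04 ± 0.08. TMOD2, the neuronal form (51751597 to 51816363), was at 7.70 and 9.0 CPM under the control hairpin, against 11.9 and 9.87 CPM under shNBD1. Its log2 fold change was 0.38 ± 0.25 on 110 to 167 counts per library in these groups. TMOD1 made up 25.6% and 27.1% of the counts of the 3 tropomodulins under the control hairpin, against 44.1% and 44.2% under shNBD1. The difference within this family thus lay mainly in TMOD1.

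The remaining members cap or bind barbed ends. TWF2, a twinfilin on chromosome 3 (52228612 to 52239158), was at 27.3 and 28.4 CPM under the control hairpin, against 33.0 and 35.2 CPM under shNBD1, a log2 fold change of 0.29 ± 0.12. CAPG on chromosome 2 (85391602 to 85419540) was at 6.31 and 8.27 CPM under the control hairpin, against 8.18 and 7.76 CPM under shNBD1, so that these groups overlapped. Its log2 fold change was 0.14 ± 0.16, and the sign rested on shRNA control replicate 1, without which the value was -0.05.

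The choice of the list fixed which members passed the threshold used for all genes (adjusted p under 0.05) with shNBD1, so their number is no test of them. It was 2 of 8, beside 18.3% of all 13306 genes tested, with CAPZA1 the 1 on the lower side, beside 9.15% of all genes, and TMOD1 the 1 on the higher side, beside 9.18%. The same genes were the members at least 2-fold lower, beside 1.9% of all genes, and at least 2-fold higher, beside 2.47%. The libraries of the groups did not overlap for 5 members, beside 69% of all genes: 2 lay below their controls, beside 34.3%, and 3 above, beside 34.7%. As the list was picked on this comparison, nothing is read from these counts. The median log2 fold change was 0.07 over the 8 members and 0.00 over all genes. Over 11 alternative fits the log2 fold change ran from -1.24 to -1.21 for CAPZA1 and from 1.11 to 1.17 for TMOD1, which describes the same libraries that chose them. Calls over all genes depended on each library: the total of 2440 became 532 when shRNA control replicate 1 was left out and 716 when replicate 2 of that group was. It became 1022 when shNBD1 replicate 1 was left out and 619 when shNBD1 replicate 2 was.

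The bases upstream of CAPZA1 and TMOD1 are shown for reference, as these members differed most with shNBD1. They come from RefSeq on GRCh38.p14 and cover the 250 bases before a transcript start, read 5′ to 3′ on the plus strand. Promoters of all 8 measured members were in that table, and TMOD1 had 2 annotated starts. Capitals mark matches on either strand. The letters searched were GGGCGG for SP1 and CCAAT for the factor NF-Y. A TATA box was searched as TATAAA, the TEAD motif as GGAATG, and the SRF motif as the CArG box.

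CAPZA1, chr1:112619582-112619831: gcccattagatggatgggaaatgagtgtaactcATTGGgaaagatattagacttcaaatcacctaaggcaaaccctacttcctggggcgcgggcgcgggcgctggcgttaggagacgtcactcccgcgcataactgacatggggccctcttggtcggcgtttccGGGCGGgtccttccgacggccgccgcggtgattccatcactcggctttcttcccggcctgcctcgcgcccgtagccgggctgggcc

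TMOD1 first start, chr9:97500930-97501179: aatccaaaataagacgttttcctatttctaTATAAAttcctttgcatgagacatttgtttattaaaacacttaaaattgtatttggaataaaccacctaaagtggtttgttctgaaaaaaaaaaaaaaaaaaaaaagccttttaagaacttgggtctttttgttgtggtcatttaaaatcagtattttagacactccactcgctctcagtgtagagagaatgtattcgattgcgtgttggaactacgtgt

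TMOD1 second start, chr9:97501416-97501665: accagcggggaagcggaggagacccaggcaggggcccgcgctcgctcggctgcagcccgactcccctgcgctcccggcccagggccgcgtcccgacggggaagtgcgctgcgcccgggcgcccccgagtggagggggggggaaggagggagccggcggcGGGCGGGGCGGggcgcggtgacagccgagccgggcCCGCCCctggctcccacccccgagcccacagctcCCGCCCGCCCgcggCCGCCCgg

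The CAPZA1 window held 1 GGGCGG and 1 CCAAT match, with a GC content of 62%. The first TMOD1 window held 1 TATAAA match at a GC content of 30.4%, and the second held 6 GGGCGG matches, some of which overlap, at 83.2%. No window held GGAATG or a CArG box. Over 27305 promoters in windows of this length, 42.3% held GGGCGG, 33% CCAAT, 11.1% TATAAA, 11.9% GGAATG and 1.14% a CArG box, and the median GC content was 58%. A match is a description of letters, and footprint counts do not show which start was used.

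The miRNA inhibitors were compared with their own control, and the comparison on which the list was chosen holds none of these 4 libraries. Earlier results of these data were known when the list was chosen. In this inhibitor comparison TMOD1 was lower, at 32.6 ± 4.22 CPM with the inhibitors and 47.1 ± 3.70 CPM in the control (mean ± SD, n = 2). Both inhibitor libraries lay below both controls, but the log2 fold change of -0.52 ± 0.10 did not pass the threshold (adjusted p = 0.0803, edgeR's quasi-likelihood test with Benjamini-Hochberg adjustment, unadjusted p = 0.000303). This SE and p draw on the spread of all 8 libraries, those that chose the list among them. Replicates of the shRNA groups differed less (chi-square over its degrees of freedom of 1.42 and 2.77) than those of the inhibitor groups (14.4 and 21.1). The call changed with the tool and the libraries: the adjusted p was 0.0109 with DESeq2 and 0.0212 with no filter on low counts, and 0.568 in edgeR on the 4 libraries of the comparison alone. Leaving out inhibitor control replicate 1 gave 0.278 in edgeR, and leaving out replicate 2 of that group 0.0247. For the inhibitor libraries it was 0.00802 when replicate 1 was left out and 0.293 when replicate 2 was. The value was below 0 in all 11 alternatives, from -0.68 to -0.41.

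CAPZA1 was at 167 ± 8.26 CPM with the inhibitors and 153 ± 3.62 CPM in their control. Its log2 fold change was 0.12 ± 0.07, with both inhibitor libraries above both controls, and it did not pass the threshold (adjusted p = 0.378, edgeR). CAPZB was at 195.8 and 197.0 CPM in the control and at 201.3 and 197.3 CPM with the inhibitors, a log2 fold change of 0.02 ± 0.06 without overlap of the libraries (adjusted p = 0.899, edgeR). CAPZA2 was at 61.3 and 58.7 CPM in the control and at 62.3 and 54.5 CPM with the inhibitors, and its log2 fold change was -0.04 ± 0.08 (adjusted p = 0.861, edgeR). The alpha to beta count ratio of CapZ was 1.09 ± 0.032 in the control and 1.13 ± 0.054 with the inhibitors, which differ by less than the SD of the inhibitor group.

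The remaining members gave no call with the inhibitors. TMOD3 was at 93.5 and 84.5 CPM in the control and at 88.0 and 79.7 CPM with the inhibitors, with overlapping groups and a log2 fold change of -0.08 ± 0.08. TMOD2 varied more within the control, from 14.6 to 8.63 CPM, than between the groups, and was at 11.4 and 8.89 CPM with the inhibitors. TWF2 was at 28.5 and 34.97 CPM in the control and at 27.3 and 31.4 CPM with the inhibitors. CAPG was at 8.38 and 8.63 CPM in the control and at 8.13 and 7.28 CPM with the inhibitors. Adjusted p-values of these 4 genes ran from 0.635 to 0.741 (edgeR).

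In all, 0 of 8 members passed with the inhibitors in edgeR's quasi-likelihood test, beside 0.12% of all genes (0.0376% higher and 0.0827% lower), while 1 of 8 had an unadjusted p under 0.05, beside 16.4% of all genes. DESeq2 called 1 member, beside 118 genes in all. In both cases the member was TMOD1. DESeq2 gave CAPG and TMOD2 no adjusted p, and its share of calls over all genes with an adjusted p was not computed. Groups did not overlap for 4 of 8 members, beside 40.8% of all genes: CAPZA1 and CAPZB lay above their controls, beside 20.5%, and CAPG and TMOD1 below, beside 20.3%. The median log2 fold change of the members was -0.10 and that of all genes 0.01. The threshold was reached by few genes of any kind here: the 16 calls over all genes became 4 without inhibitor control replicate 1, 639 without its replicate 2, 930 without inhibitor replicate 1 and 6 without inhibitor replicate 2.

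**Figure D2:**
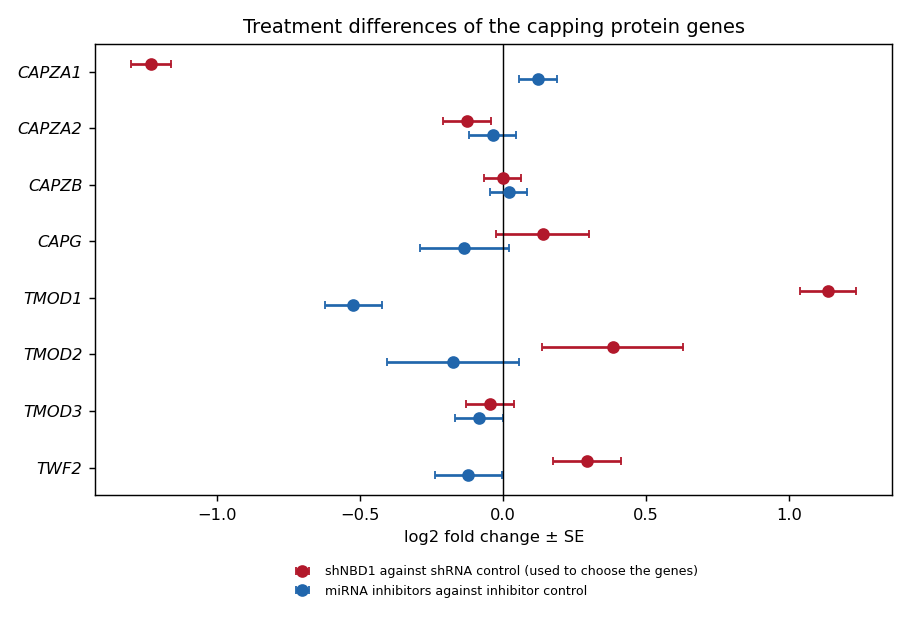
Log2 fold change ± SE of the 8 measured members for shNBD1 against its control (red, the comparison on which the list was chosen) and for the inhibitors against theirs (blue). CAPZA1 lay at -1.23 and 0.12, TMOD1 at 1.14 and -0.52, and CAPZB and TMOD3 near 0 in both.

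Set side by side, TMOD1 stood at 1.14 ± 0.10 with shNBD1 and -0.52 ± 0.10 with the inhibitors, and CAPZA1 at -1.23 ± 0.07 and 0.12 ± 0.07 (log2 fold change ± SE). The difference of these effects was 1.66 ± 0.14 for TMOD1 and -1.35 ± 0.10 for CAPZA1, given without a test because it holds the comparison that chose them. It was 0.41 ± 0.17 for TWF2, 0.56 ± 0.34 for TMOD2 and 0.27 ± 0.22 for CAPG. For CAPZA2, CAPZB and TMOD3 it lay between -0.09 and 0.04, each below its SE.

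The controls themselves were not alike. The log2 fold change of the shRNA control over the inhibitor control was -0.29 ± 0.07 for CAPZA1 and -0.34 ± 0.10 for TMOD1. These were the 3091st and 2725th lowest of 13306 genes. Libraries of the controls did not overlap for these genes, nor for CAPZA2, CAPZB, CAPG and TWF2. The share of all genes without overlap was not computed for the controls, so nothing particular to the members is read from this. TMOD2 was at -0.48 ± 0.24 with overlapping libraries, and the other 5 members lay between -0.23 and 0.11. These values share control libraries with the comparisons above. By group mean, CAPZA1 ran from the inhibitors through the inhibitor control and the shRNA control down to shNBD1, with no overlap between neighbours. TMOD1 ran from shNBD1 through the inhibitor control and the shRNA control down to the inhibitors, again with no overlap between neighbours. For TMOD2, TMOD3 and TWF2 all neighbours in that order overlapped. CAPZB was higher in both groups of the inhibitor arm than in both of the shRNA arm, where neighbours overlapped. The libraries of CAPZA2 overlapped between the inhibitor control and the inhibitors, and between the inhibitors and the shRNA control, with shNBD1 below. CAPG overlapped below the inhibitor control.

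**Figure D3:**
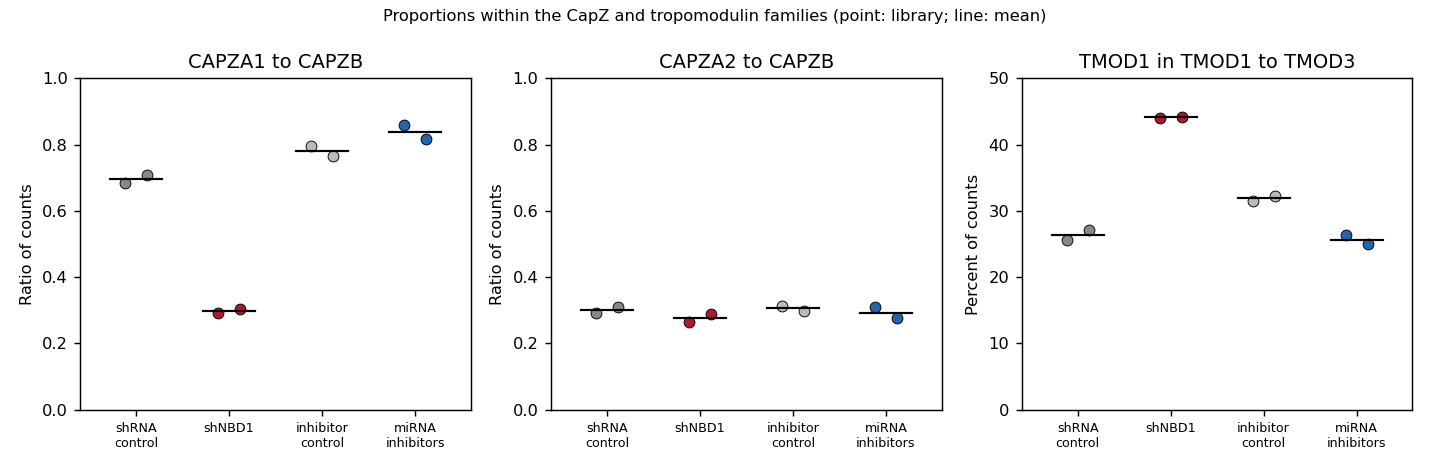
Count ratios of CAPZA1 and of CAPZA2 to CAPZB, and the percent of tropomodulin counts on TMOD1, with a point for each library and a line for the group mean (n = 2). The CAPZA1 ratio was 0.291 and 0.303 with shNBD1 and at least 0.685 elsewhere, the CAPZA2 ratio stayed between 0.265 and 0.313, and the TMOD1 share was 44.1% and 44.2% with shNBD1 and at most 32.3% elsewhere.

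In the inhibitor arm, TMOD1 made up 31.5% and 32.3% of tropomodulin counts in the control and 26.3% and 25.04% with the inhibitors, with no overlap. CAPZA1 made up 71.8% and 72.0% of alpha counts in the control and 73.5% and 74.7% with the inhibitors. With 2 libraries a group these shares are given as values, with no test.

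Patterns like those of CAPZA1 and TMOD1 were searched among 10908 genes averaging 50 counts or more, as the smallest distance between log2 CPM profiles over the 8 libraries, each centred on its mean. Nearest to CAPZA1 was TENT5C at a distance of 0.12 log2 units, a poly(A) polymerase whose group means were 11.2 CPM (control hairpin), 4.94 CPM (shNBD1), 13.3 CPM (inhibitor control) and 15.1 CPM (inhibitors). It was followed by GRK2, a receptor kinase (0.24), CARNMT1, a carnosine methyltransferase (0.25), PRR14L (0.30) and HIPK3, a kinase (0.31). Nearest to TMOD1 were C1QTNF1, a secreted protein (0.35), RCAN2, a calcineurin regulator (0.39), NDRG4 (0.49), KRT81, a hair keratin (0.49), and CNTNAP1, of axon contacts (0.49). C1QTNF1 had group means of 11.98, 26.1, 12.9 and 10.8 CPM in the same order, a likeness to TMOD1 that the search itself selects. The mean with the inhibitors (SD 1.84 CPM, n = 2) was close to that under the control hairpin (SD 0.15 CPM, n = 2).

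The wider actin machinery was described with 7 lists of 116 genes, of which 95 were tested. The lists were written with earlier results of these data known, so the counts of calls below are a description and no test of the lists. With shNBD1 17 rose and 9 fell, or 27.4% called beside 18.3% of all genes (edgeR's quasi-likelihood test, adjusted over all genes). All 26 had the same direction in each alternative fit, but 6 of them were still called when shRNA control replicate 1 was left out and 8 when replicate 2 of that group was. For shNBD1 these numbers were 10 for replicate 1 and 8 for replicate 2. Values of the genes named below are log2 fold changes ± SE.

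Among other capping proteins and CapZ regulators, 3 of 20 rose and 6 fell, with a median of -0.01. The barbed-end severing and capping protein GSN rose by 0.48 ± 0.08, its relative FLII by 0.42 ± 0.06, and PLEKHO1, which binds CapZ and inhibits it, by 0.71 ± 0.13 from 8.22 to 13.4 CPM. EPS8L2, of a family of actin-binding adaptors, fell by 0.50 ± 0.10, SCIN, a gelsolin relative, by 0.35 ± 0.08, and WASHC2A, the CapZ-binding arm of the WASH complex, by 0.39 ± 0.09. WASHC2A and WASHC2C are nearly identical copies, so their counts may be mixed. Without shRNA control replicate 1 only GSN of these 9 was still called. Beside the called CapZ binders PLEKHO1 and WASHC2A, 3 others named after values were seen were not called: MTPN, which sequesters CapZ, stood at -0.09 ± 0.08, CARMIL1, which strips CapZ from barbed ends, at 0.01 ± 0.10, and the CapZ-binding adaptor CD2AP at -0.24 ± 0.08 (adjusted p = 0.0689, edgeR). In the same list SH3KBP1 at 0.23 ± 0.12 and CARMIL2 at 0.50 ± 0.32 were not called either, while WASHC2C was called at -0.33 ± 0.08.

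Tropomyosins coat the filament and raise the affinity of tropomodulin for pointed ends. Of 3 tested, TPM1 rose by 1.02 ± 0.15 from 91.7 to 185.7 CPM and TPM4 by 0.78 ± 0.09 from 270.3 to 465.5 CPM, while TPM3 stood at -0.06. TPM2 was not analysed here. Of 4 actin genes, ACTG2 rose by 0.52 ± 0.10 and ACTC1 by 0.48 ± 0.10. Both are muscle isoforms whose coding sequences closely resemble those of ACTB and ACTG1, which were not analysed here, so which actin their counts come from is uncertain. Of 7 tested markers of other cell types, 2 rose and 1 fell with shNBD1, or 42.9% called beside 18.3% of all genes. The muscle genes MYH11 at 0.81 ± 0.15 and DES at 0.53 ± 0.16 (5.79 to 8.45 CPM) rose, and CD68 stood at -0.51 ± 0.12. Those not called were EPCAM at -0.10, PECAM1 at -0.08, GFAP at 0.11 and COL1A1 at 0.50. Whether other cell types had a part in the result was not tested.

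The dynactin complex, whose short filament CapZ caps at its barbed end, held no call in 9 genes tested, with a median of -0.07 and its largest value at -0.21 for DCTN3. Of 19 genes of the Arp2/3 complex and its activators, which nucleate branched filaments, 1 fell, the subunit ARPC3 at -0.29 ± 0.07, and none rose, with a median of -0.07. Its call was lost whichever library of the comparison was left out. Among formins, Ena/VASP proteins and proteins of monomer delivery, 4 of 18 rose, beside 9.18% of all genes, and none fell, beside 9.15%. The median was 0.24, and none of the 4 was a formin. COBL, a nucleator, rose by 0.52 ± 0.09, ENAH by 0.35 ± 0.07 and SPIRE2 by 0.60 ± 0.15. The fourth was VASP at 0.51 ± 0.15, named after its values were seen. Without shRNA control replicate 1 only COBL of these 4 was still called, and without its replicate 2 none was.

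Among proteins of filament turnover and monomer binding, 6 of 22 rose and 2 fell, with a median of 0.12. CORO1C, a coronin that binds filaments and Arp2/3, fell by 1.01 ± 0.07 from 258 to 128 CPM, and TMSB4X, which holds actin monomers, by 0.35 ± 0.10. LIMK1, the kinase that inactivates cofilin, rose by 0.87 ± 0.14, MICAL2, which oxidises filaments, by 0.62 ± 0.14 and CAP2, which binds cofilin-bound actin, by 0.40 ± 0.08. Adjusted p-values of all 26 called genes ran from 2.09e-05 for CORO1C to 0.0458 in edgeR. The calls of CORO1C, LIMK1, TPM1, TPM4 and GSN were kept whichever library of the comparison was left out.

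**Figure D4:**
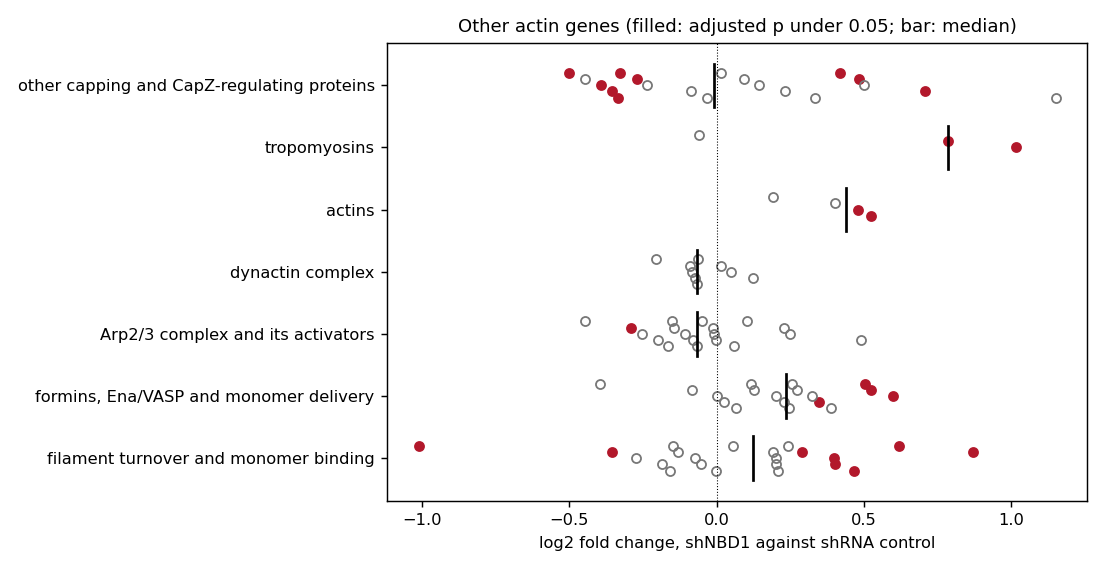
Log2 fold change with shNBD1 of 95 other actin genes in 7 lists, with a point for each gene, filled where the adjusted p was under 0.05, and a bar for the median of each list. The dynactin genes held no call and clustered near 0, while the points farthest to either side among called genes were CORO1C at -1.01 and TPM1 at 1.02.

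With the inhibitors, 0 of these 95 genes were called in edgeR's quasi-likelihood test, beside 0.12% of all genes, while 17 had an unadjusted p under 0.05, beside 16.4% of all genes. DESeq2 called 1, the smooth muscle actin gene ACTA2 at -0.33 ± 0.09 (adjusted p = 0.0276), which edgeR with no filter on low counts also called. As for ACTG2 and ACTC1, which actin its counts come from is uncertain. The count depended on the libraries: 1 rose and 2 fell without inhibitor control replicate 2, and 6 rose and 1 fell without inhibitor replicate 1. In that last fit TPM1 stood at 0.48 ± 0.12, TPM4 at 0.29 ± 0.08 and the Arp2/3 partner CTTN at 0.50 ± 0.08. The other rising genes were ACTA1 at 0.45 ± 0.11, DIAPH3 at 0.38 ± 0.10 and CFL1 at 0.34 ± 0.08. The falling gene was TMSB10 at -0.355 ± 0.083. In the fit with all libraries TPM1 was at 0.26 and TPM4 at 0.18, neither called. List medians ran from -0.08 in dynactin and the capping regulators to 0.18 in tropomyosins.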

How the data were processed

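Ribosome footprints of 8 libraries of 293T cells were deposited by the authors as whole-number counts per transcript feature. Cutadapt, Bowtie and GRCh38 are named, per the submitters' processing notes; versions, strand use and the treatment of multiply matching reads were not given in the sources used here. A feature with no line in a library was taken as 0 counts, and features were summed by gene symbol. The counts were fitted in R 4.3.3 with edgeR 4.0.16 (TMM scaling, filterByExpr with a minimum count of 10 and minimum total of 15, quasi-likelihood test) over all 4 groups of 2 libraries. Benjamini-Hochberg adjustment ran over 13306 genes with a threshold of 0.05. DESeq2 1.42.0, other filters and scalings, a replicate block and fits without each library were alternatives. The fit was tested on simulated data.

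The members and lists were chosen with earlier results of these data known. All members were named; from each list, called genes, at most 3 in each direction by smallest p; and the 5 genes nearest in profile to CAPZA1 and TMOD1. Coding lengths were not used here, so the planned scaling of the CapZ ratio by length was not made and count ratios stand in its place.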

Additional observations from a re-analysis of the deposited data

How the results depend on the processing

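With shNBD1, 86 of 88 single member values moved by less than the SE of the log2 fold change in the main fit. The others are those of CAPG. These libraries chose the list, so this is a description. Fitting only the 4 libraries of the comparison gave 4 called members instead of 2, 5314 called genes instead of 2440, and 31 rising and 18 falling genes of the actin lists instead of 17 and 9. Leaving out 1 library gave 532 to 1022 called genes, with 5 to 8 rising and 1 to 2 falling genes in the lists, from fewer libraries. With the replicate block 14 genes of the lists fell. The cause was not tested.

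With the inhibitors, 16 genes were called in all. No filter on low counts gave 179, DESeq2 118, the replicate block 675, only the 4 libraries of the comparison 0, and leaving out 1 library 4 to 930. Members called were 1, TMOD1, with no filter, DESeq2 and the replicate block (adjusted p = 0.0094 in edgeR), and 0 to 1 without 1 library. Genes of the actin lists that rose numbered 2 with the block and 0 to 6 without 1 library, and those that fell 1 with no filter, 1 with DESeq2, 1 with the block and 0 to 2 without 1 library. Leaving out 1 library turned the sign of CAPZA2 (-0.15 to 0.044), CAPZB (-0.0052 to 0.025), TMOD2 (-0.50 to 0.25) and TWF2 (-0.27 to 0.033), none of them called. The cause was not tested.

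Replicate numbers are shared between groups but not said to pair them: deviations of same-numbered libraries correlated at 0.04 for the shRNA groups and 0.62 for the inhibitor groups, across 10909 genes, which are not independent replicates. Low counts limit TMOD2 and CAPG most.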
